A study of Homo sapiens with 4 samples.

Results

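The HOX genes and the CDX genes were followed in human cells at day 2 of hematopoietic differentiation. The members were all genes of the deposited files named HOXA, HOXB, HOXC or HOXD with a number, together with CDX1, CDX2 and CDX4. This gave 40 of 17894 genes, of which 39 are described, namely 36 HOX genes (10 in HOXA, 10 in HOXB, 8 in HOXC and 8 in HOXD) and 3 CDX genes. HOXC12 and HOXD12 were not analysed here. All counts of members refer to these 39 genes.

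All samples came from H1, a human embryonic stem cell line, differentiated on mAGM-S3, a mouse stromal cell line, in IMDM medium with fetal bovine serum. Human cells were sorted by an antigen of human cells and profiled by RNA-SEQ, with 1 library per sample. The control was wild-type H1 at day 2, and the R-spondin2 sample was wild-type H1 at day 2 that had received R-spondin2 at 20 ng/mL for the first day. The other 2 samples were LGR4-/- H1 cells at day 2 without added R-spondin2, here called clone 1 and clone 2. The labels number these as separate LGR4-/- samples, and how the lines were made is not given in the sources used here. Since each condition and each line had a single library, no difference between libraries has a replicate check, and differences were described by their size and counting error. limma, which has to borrow the spread of the clones, was run as an alternative only. R-spondin2 and LGR4-/- values were both set against the same control library. The paper reports that mAGM-S3 cells express R-spondin genes, R-spondin2 the most. The control and the clones, grown on these cells, were therefore not shown to be free of R-spondin2.

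HOX genes encode homeodomain transcription factors that specify position along the body axis. They lie in 4 clusters, and in the early embryo the genes at the 3′ end of a cluster, which pattern anterior regions, come on before the genes at the 5′ end, which pattern posterior regions. CDX proteins are homeodomain factors of the posterior embryo that bind HOX clusters and help to switch HOX genes on, and both families act in blood formation from mesoderm. WNT, FGF and retinoic acid signals act upstream of them. R-spondins are secreted proteins that strengthen WNT signaling, and LGR4 encodes one of their receptors.

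Promoter sequence was at hand in RefSeq (GRCh38.p14) for 21 members. Of the 7 members with a mean of at least 1 FPKM (mapped fragments scaled for transcript length and for the depth of the library), it was at hand for 3, namely CDX2, CDX4 and HOXB1. These are shown as the members of at least 1 FPKM with a promoter at hand, whatever their differences between libraries. Each run gives the 250 bases before the annotated start of the gene, on the strand of the gene, 5′ to 3′. CDX2 lies on the minus strand (chr13:27969316-27969565), CDX4 on the plus strand (chrX:73446803-73447052) and HOXB1 on the minus strand (chr17:48531012-48531261). Capitals mark CTTTGA, the letters that TCF/LEF factors, the DNA-binding partners of β-catenin in WNT signaling, are known to bind.
CDX2: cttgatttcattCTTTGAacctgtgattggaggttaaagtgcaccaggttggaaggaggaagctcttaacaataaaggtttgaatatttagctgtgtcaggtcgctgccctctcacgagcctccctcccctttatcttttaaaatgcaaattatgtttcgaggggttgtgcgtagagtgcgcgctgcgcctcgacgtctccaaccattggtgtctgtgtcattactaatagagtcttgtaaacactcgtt
CDX4: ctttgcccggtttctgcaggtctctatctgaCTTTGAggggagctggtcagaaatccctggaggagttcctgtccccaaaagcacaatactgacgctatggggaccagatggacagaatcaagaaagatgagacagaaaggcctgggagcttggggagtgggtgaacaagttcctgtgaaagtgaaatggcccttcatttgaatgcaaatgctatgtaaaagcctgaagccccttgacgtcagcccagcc
HOXB1: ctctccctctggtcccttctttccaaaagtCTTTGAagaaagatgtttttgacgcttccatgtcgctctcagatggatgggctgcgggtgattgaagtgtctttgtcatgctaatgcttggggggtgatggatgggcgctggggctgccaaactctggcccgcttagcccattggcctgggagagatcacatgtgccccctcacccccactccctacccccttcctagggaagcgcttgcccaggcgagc
CTTTGA stood on the strand of the gene in all 3, from 238 to 233 bases before the start in CDX2, from 219 to 214 in CDX4 and from 220 to 215 in HOXB1. Searched on both strands, CTTTGA was found in 4 of the 21 members and in 11.2% of all 35116 promoters of the same length. TTTATG, bound by CDX factors, was found in 3 of the 21 members and in 9.64% of all promoters, and in none of the 3 shown. AGGTGT (bound by T-box factors), AGGTCA (bound by retinoic acid receptors) and GTCTAGAC (bound by SMAD factors) were found in 0 of the 21 members and in 9.57%, 12.1% and 0.182% of all promoters. A match is a match of letters and not a measured binding site, and no measurement of binding was used here.

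LGR4 was measured at 21.77 FPKM in the control, 24.26 with R-spondin2, 7.40 in clone 1 and 13.95 in clone 2, so that the clones held 34.0% and 64.1% of the control level. The edited place in the gene is not given in the sources used here, and a transcript level checks the label only in part. The number of reads behind each library was estimated from the low FPKM values and lay between 8680000 and 8910000. At that depth 1 read was worth from 0.0223 to 0.113 FPKM for the members in the control. Levels of pluripotency genes and of primitive streak genes differed between the libraries and are given beside the results that they moved with.

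At day 2 few of the HOX genes described were on, and those that were lay at the anterior and central positions, mainly in the HOXB cluster. With on defined as at least 1 FPKM, 8 of the 39 members were on in the control, 11 with R-spondin2, 2 in clone 1 and 6 in clone 2. Among all genes of the files 70.4%, 70.0%, 71.1% and 70.8% reached this level in the same libraries. In all, 13 members were on in at least 1 library, against 74.1% of all genes. CDX1 and CDX2 were on in all 4 libraries.

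By cluster, HOXB had 5 of its 10 genes on in the control, 7 with R-spondin2, 0 in clone 1 and 3 in clone 2. Of the 10 HOXA genes described, HOXA5 was on with R-spondin2 and 0 were on in the other libraries. HOXC had 1 of 8 on with R-spondin2 and 0 in the other libraries, and HOXD had 0 of 8 on in every library. HOXC6 was the HOXC gene on with R-spondin2, so that HOXA5 and HOXC6 were the members outside HOXB and the CDX genes that reached 1 FPKM.

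By paralog position, 3 of 7 anterior genes (positions 1 to 3) and 7 of 15 central genes (positions 4 to 8) were on in at least 1 library. Of the 14 posterior genes (positions 9 to 13) 0 were on, and their highest value was 0.37 FPKM, for HOXB9 in the control. Anterior genes on numbered 3, 2, 0 and 2 in the control, R-spondin2, clone 1 and clone 2. Central genes on numbered 2, 7, 0 and 1. The central positions were those at which the number of genes on differed most between the control and R-spondin2.

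**Figure D1:**
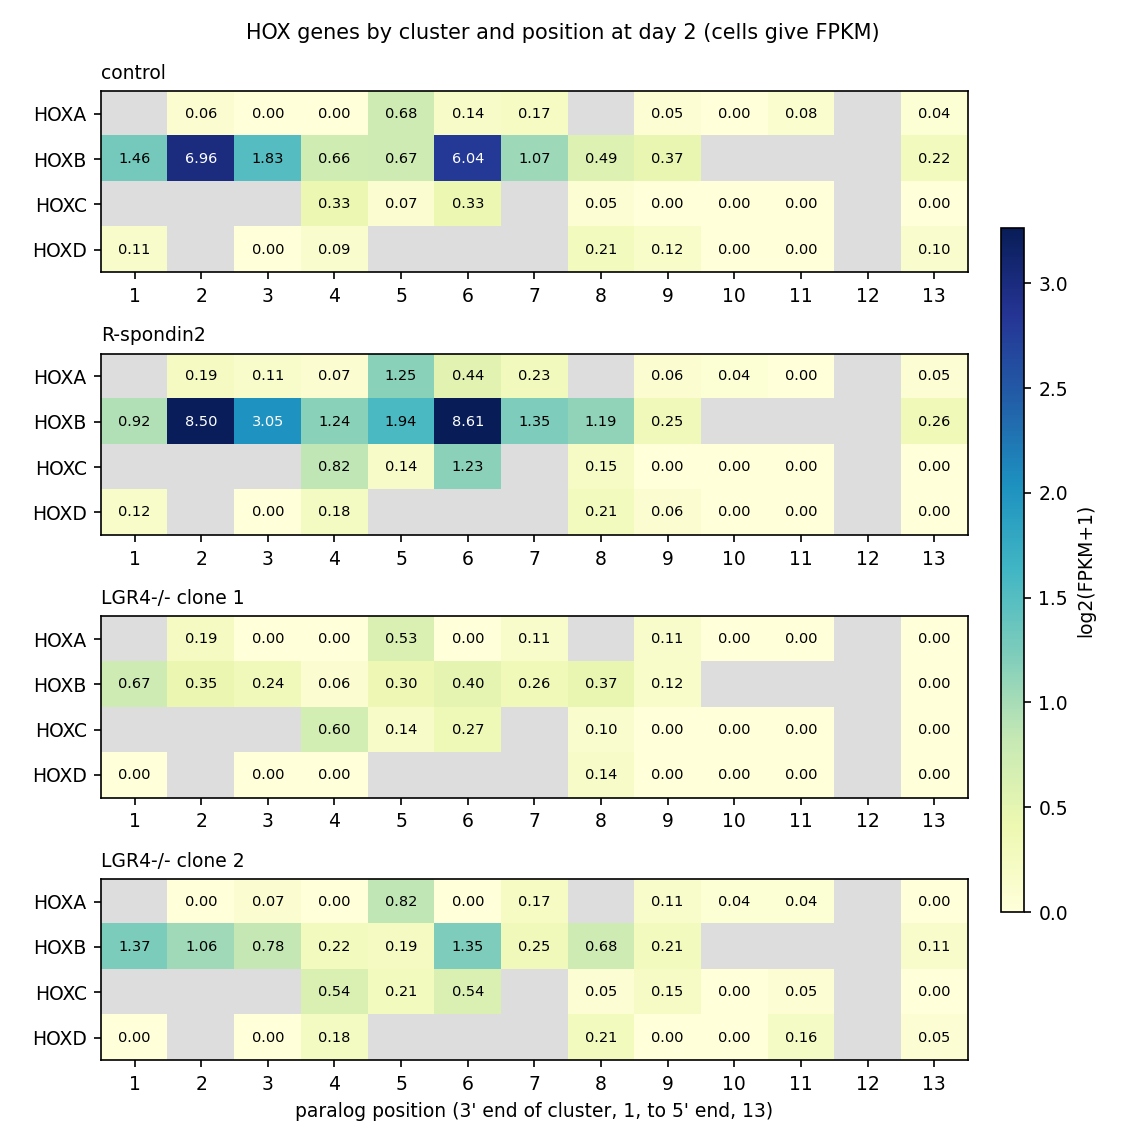
Level of each HOX gene described in each of the 4 libraries, with clusters as rows and paralog positions as columns. Colour gives log2(FPKM+1), the printed number gives FPKM, and grey squares hold no gene or no value used here. The darkest squares are HOXB2 and HOXB6 in the control and R-spondin2 libraries, and positions 9 to 13 stay at or below 0.37 FPKM.

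The remaining 26 members were below 1 FPKM in every library. They were 9 HOXA genes with values up to 0.44 (HOXA6 with R-spondin2), 2 HOXB genes up to 0.37, 7 HOXC genes up to 0.82 (HOXC4 with R-spondin2) and 8 HOXD genes up to 0.21 (HOXD8). HOXC10, HOXC13, HOXD3 and HOXD10 were listed at 0 in all 4 libraries. In the control a value of 0 still allows up to 3 reads, worth from 0.139 to 0.174 FPKM for these 4 genes. HOXA9 and HOXA10, known for their part in blood stem and progenitor cells, did not exceed 0.11 and 0.04 FPKM at day 2.

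Summed over its genes, HOXB gave 19.77 FPKM in the control, 27.31 with R-spondin2, 2.77 in clone 1 and 6.22 in clone 2. HOXC gave 0.78, 2.34, 1.11 and 1.54 FPKM, and HOXD 0.63, 0.57, 0.14 and 0.60 FPKM. HOXB was above HOXC and HOXD in every library, and it was the cluster of these with the widest range between libraries.

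Counting error was set by the reads implied for each gene, which are its FPKM times its transcript length and the estimated depth. The HOXB sum corresponded to 326 reads in the control (95% Poisson interval 292 to 363), 449 with R-spondin2 (408 to 493), 48 in clone 1 (35.4 to 63.6) and 109 in clone 2 (89.5 to 131). These 4 intervals did not overlap. They cover counting error only and say nothing of the spread between cultures. HOXD rested on 2 to 10 reads per library, at which differences were hardly detectable.

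**Figure D2:**
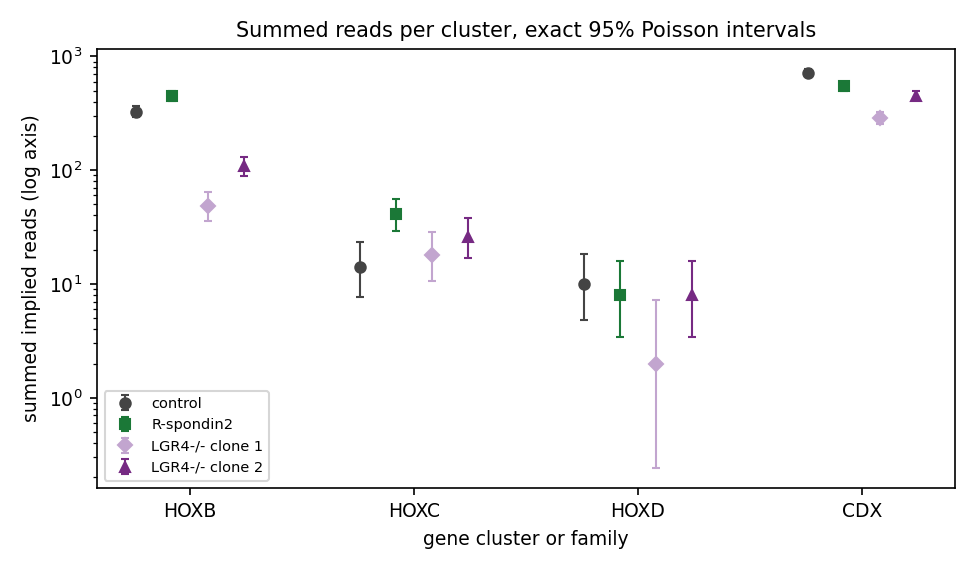
Summed implied reads of HOXB, HOXC, HOXD and the CDX genes in the 4 libraries, on a log axis. Points are sums and bars are exact 95% Poisson intervals, which cover counting error only. HOXB falls apart into 4 separate levels, from 48 reads in clone 1 to 449 with R-spondin2.

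The R-spondin2 library was set against the control library. Over the whole cluster 8 of 10 HOXB genes were higher with R-spondin2 and 2 were lower (HOXB1 and HOXB9), whereas the CDX genes were lower in 3 of 3. From HOXB2 to HOXB8, 7 of 7 genes were higher, by 1.22-fold to 2.91-fold in implied reads. This run was not among the positions set beforehand and leaves out both lower genes, so its count follows from the choice. Over all 39 members 23 were higher and 8 lower, where 44.6% and 48.0% of all genes of the files were higher and lower by any amount. The HOXB sum was 1.38-fold higher in FPKM, with a log2 ratio of reads of 0.50 (95% counting interval 0.29 to 0.71). The CDX sum was lower, with a log2 ratio of −0.36 (−0.52 to −0.20). In log2(FPKM+1), which understates the change of low genes, 0 of the 7 members with a mean of at least 1 FPKM were 2-fold higher and 0 were 2-fold lower, where 0.0473% and 0.173% of the 12697 genes tested were. With a pseudocount of 0.1 in place of 1, CDX4 was called lower, and the share of all genes at that setting was not computed. The median difference of these 7 members was −0.16 and that of all genes tested −0.01, and over all 39 members with no filter it was 0.05, on the other side of 0.

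Among the anterior HOXB genes, HOXB2, a gene of the hindbrain and early mesoderm, stood at 6.96 FPKM in the control and 8.50 with R-spondin2. Its log2 ratio of reads was 0.28, and the counting interval, −0.12 to 0.69, spanned 0. HOXB3 was at 1.83 and 3.05 FPKM, a log2 ratio of 0.74 (0.17 to 1.32). HOXB1, the gene at the 3′ end of the cluster, was at 1.46 and 0.92 FPKM, a log2 ratio of −0.66 with an interval of −1.66 to 0.29. HOXB1 therefore stood on the other side of the control from its neighbours, but by less than counting error. HOXB2 was 4.77 times the level of HOXB1 in the control and 9.24 times with R-spondin2, per length. These ratios rested on 26 and 16 reads of HOXB1, and no counting interval was computed for them.

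Of the central HOXB genes, HOXB6 and HOXB7 reached 1 FPKM in the control, and HOXB4, HOXB5 and HOXB8 did so with R-spondin2 only. HOXB6 was the highest of the central HOXB genes, at 6.04 FPKM in the control and 8.61 with R-spondin2, a log2 ratio of 0.52 (0.11 to 0.93). HOXB5 differed most in ratio, at 0.67 and 1.94 FPKM, 12 and 34 reads, a log2 ratio of 1.54 (0.55 to 2.62). HOXB4, a gene used to expand blood stem cells, was at 0.66 and 1.24 FPKM, 22 and 40 reads, a log2 ratio of 0.90 (0.11 to 1.72). These 3 genes lay above the control beyond counting error. HOXB8 was at 0.49 and 1.19 FPKM, 8 and 19 reads, and its interval, 0.03 to 2.69, only just excluded 0. HOXB7 was at 1.07 and 1.35 FPKM, with an interval that spanned 0 (−0.81 to 1.51).

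Outside HOXB, HOXC6 was at 0.33 FPKM in the control and 1.23 with R-spondin2, 7 and 25 reads, a log2 ratio of 1.87 (0.62 to 3.33). HOXC4, its neighbour, was at 0.33 and 0.82 FPKM with an interval that spanned 0 (−0.47 to 3.05). HOXC transcripts share 5′ exons, so that reads may be split between HOXC4, HOXC5 and HOXC6. HOXA5 differed by less than counting error, at 0.68 and 1.25 FPKM (log2 ratio 0.89, −0.31 to 2.16). Over the central positions of all 4 clusters, 14 of 15 genes were higher with R-spondin2 and 0 were lower, most of them by a few reads. Among all genes of the files 44.6% were higher and 48.0% lower. Only HOXB4, HOXB5, HOXB6, HOXB8 and HOXC6 of the central genes were higher beyond counting error. The posterior positions had 4 of 14 higher and 4 lower, and the anterior positions 5 of 7 higher and 1 lower.

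The CDX genes went the other way. CDX2 was at 8.80 FPKM in the control and 5.89 with R-spondin2, a log2 ratio of −0.58 (−0.84 to −0.32). CDX4 was at 1.21 and 0.41 FPKM, 16 and 5 reads, a log2 ratio of −1.64 with an interval of −3.44 to −0.13. CDX1, the highest of the 39 members, was at 24.35 and 21.63 FPKM, an interval of −0.39 to 0.05 that spanned 0. Of the 16 members with at least 10 reads in the pair, 6 lay above the control beyond counting error (HOXB3, HOXB4, HOXB5, HOXB6, HOXB8 and HOXC6), 2 lay below it (CDX2 and CDX4) and 8 spanned 0. By the same rule 9.3% of the 14380 genes with a length and at least 10 reads lay above and 10.5% below, on a median of 446 reads in the pair against 37 for the members.

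**Figure D3:**
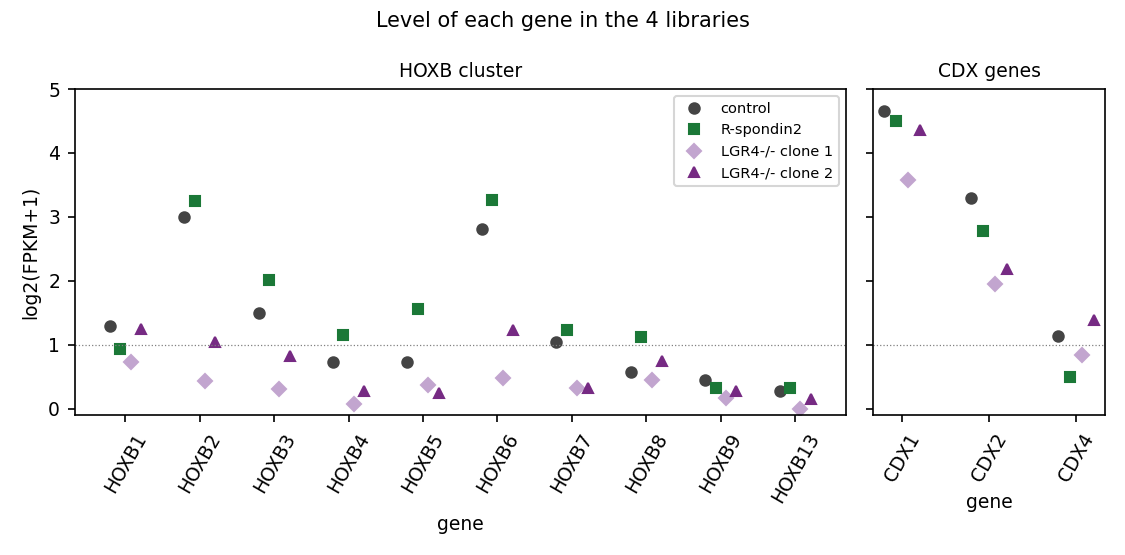
Level of the HOXB genes and the CDX genes in the 4 libraries, as log2(FPKM+1), with 1 point per library and a dotted line at 1 FPKM. HOXB2, HOXB3 and HOXB6 of both clones lie below the control and R-spondin2, whereas CDX1 of clone 2 lies near the control.

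The LGR4-/- clones, labelled as lacking a receptor of R-spondins, were set against the control. With 1 library per line, an effect of LGR4 cannot be told apart from differences between lines or cultures. In both clones the HOXB cluster was far below the control and CDX2 was lower, whereas HOXB1 and CDX1 were lower mainly in clone 1. The HOXB sum was 7.14-fold lower in clone 1 and 3.18-fold lower in clone 2 in FPKM, with log2 ratios of reads of −2.76 (−3.23 to −2.32) and −1.56 (−1.89 to −1.24). Of the 7 members with a mean of at least 1 FPKM, 3 were at least 2-fold lower in both clones in log2(FPKM+1) (HOXB2, HOXB6 and CDX2), where 1.08% of all genes tested met this rule, and 0 were at least 2-fold higher in both, where 0.236% did. With a pseudocount of 0.1, at which the share of all genes was not computed, HOXB3 met the rule as well. A filter on the mean keeps genes that are low in the clones only where another library was high, so the members that passed are no sample of all 39. By any amount and with no filter, 17 of the 39 were lower in both clones and 3 were higher in both, against 32.1% and 37.9% of all genes of the files. The median difference from the control, over the mean of the clones, was −0.93 for the 7 members and −0.02 for all 39, against 0.02 for all genes tested. Taken alone, clone 1 had 5 of the 7 at least 2-fold lower (HOXB3 and CDX1 in addition, background 2.26%), and clone 2 had HOXB2, HOXB6 and CDX2 (background 1.17%). By counting interval, 8 of 15 members lay below the control and 0 above it in clone 1 (17.2% and 21.8% of all genes with at least 10 reads), and 8 of 16 below and 0 above in clone 2 (13.8% and 17.2%). With limma, which assumes that the control varies like the clones, 0 members and 0 of all genes passed an adjusted p under 0.05 in either comparison. At an unadjusted p under 0.05 it called 4 of the 7 in LGR4-/- (18.4% of all genes) and 1 of the 7 with R-spondin2 (3.79%).

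HOXB2 was at 6.96 FPKM in the control, 8.50 with R-spondin2, 0.35 in clone 1 and 1.06 in clone 2, from 97, 115, 5 and 15 reads. Its log2 ratio of reads was −4.28 in clone 1 (−5.93 to −3.00) and −2.67 in clone 2 (−3.56 to −1.88). HOXB6 followed it closely at 6.04, 8.61, 0.40 and 1.35 FPKM, with log2 ratios of −3.89 (−5.37 to −2.71) and −2.13 (−2.91 to −1.42). Both genes were highest of the HOXB cluster in the control and in R-spondin2, and both clones lay far below these libraries. On the log2(FPKM+1) scale, which understates the change of low genes, the differences were −2.56 and −1.95 for HOXB2 and −2.33 and −1.58 for HOXB6.

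HOXB3 was at 1.83, 3.05, 0.24 and 0.78 FPKM, with log2 ratios of −2.84 in clone 1 (−4.36 to −1.60) and −1.24 in clone 2 (−2.12 to −0.41). HOXB4 was at 0.66, 1.24, 0.06 and 0.22 FPKM, or 22, 40, 2 and 7 reads, and its intervals lay below 0 in both clones (−6.59 to −1.43 and −3.10 to −0.35). HOXB3 and HOXB4 transcripts overlap, so that their reads may not be fully separate. HOXB7 was at 1.07, 1.35, 0.26 and 0.25 FPKM, with intervals below 0 in both clones on 3 reads in each. For HOXB5, at 0.67, 1.94, 0.30 and 0.19 FPKM, the interval was below 0 in clone 2 (−4.44 to −0.09) and spanned 0 in clone 1.

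The lower level was not shared by every gene of the cluster at the size seen in HOXB2. HOXB1 was at 1.46, 0.92, 0.67 and 1.37 FPKM, so that clone 2 differed from the control by less than counting error (log2 ratio −0.09, −0.96 to 0.76), and clone 1 was lower by −1.11 (−2.24 to −0.08). HOXB8 was at 0.49, 1.19, 0.37 and 0.68 FPKM, and neither clone differed from the control beyond counting error. Within a library, HOXB2 was 4.77 times the level of HOXB1 in the control but 0.522 times in clone 1 and 0.774 times in clone 2. In clone 1 this rested on 5 reads of HOXB2 and 12 of HOXB1, and in clone 2 on 15 and 24. No counting interval was computed for these ratios. Over the 10 HOXB genes 9 were lower in both clones than in the control, the exception being HOXB8, which was higher in clone 2. HOXB9 was at 0.37, 0.25, 0.12 and 0.21 FPKM, and HOXB13, at 0.22, 0.26, 0 and 0.11 FPKM, was listed at 0 in clone 1.

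**Figure D4:**
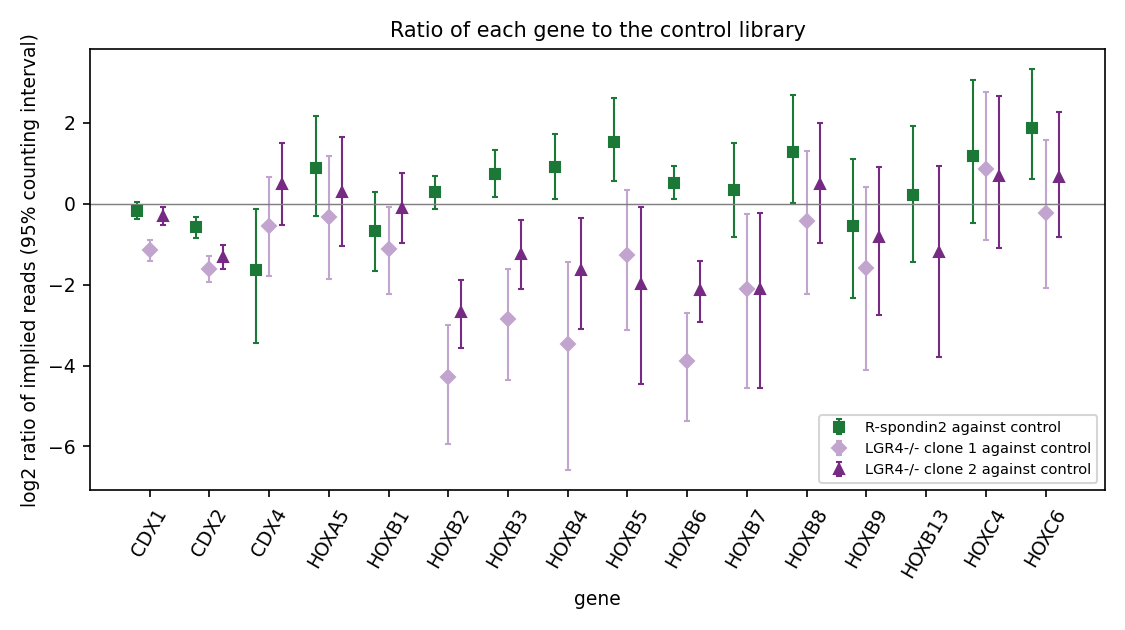
Log2 ratio of implied reads to the control for the 16 members with at least 10 reads in a pair, with 95% Clopper-Pearson counting intervals. Points are R-spondin2 and the LGR4-/- clones against the same control library, and HOXB13 of clone 1 has no point because the pair held 7 reads. The points of HOXB2 to HOXB6 lie above 0 with R-spondin2 and below 0 in both clones. The intervals of HOXB2 with R-spondin2 and of HOXB5 in clone 1 span 0.

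Outside HOXB, HOXA5 was at 0.68, 1.25, 0.53 and 0.82 FPKM, and HOXC6 at 0.33, 1.23, 0.27 and 0.54 FPKM. For both genes the intervals of both clones spanned 0. The HOXC sum was not lower in the clones, with log2 ratios of 0.36 (−0.73 to 1.48) and 0.91 (−0.08 to 1.97), on 14 reads in the control.

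CDX2, a regulator of posterior identity and of the trophectoderm, was at 8.80, 5.89, 2.87 and 3.53 FPKM, or 318, 207, 104 and 126 reads. Every other library lay below the control, clone 1 by a log2 ratio of −1.61 (−1.94 to −1.29) and clone 2 by −1.31 (−1.62 to −1.01). CDX1, a target of WNT and retinoic acid signaling, was at 24.35, 21.63, 11 and 19.63 FPKM, with log2 ratios of −1.15 in clone 1 (−1.41 to −0.88) and −0.31 in clone 2 (−0.53 to −0.09). CDX4 was at 1.21, 0.41, 0.80 and 1.63 FPKM, and the intervals of both clones spanned 0. CDX1 exceeded CDX2 in every library, by 2.77 times in the control, 3.67 times with R-spondin2, 3.83 times in clone 1 and 5.56 times in clone 2. The pattern of CDX2, lower with R-spondin2 and lower in both clones, thus differed in direction from that of HOXB2 to HOXB7. These HOXB genes, a run picked with their values known, were higher with R-spondin2 and lower in both clones.

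The clones themselves were not alike. Of the 39 members, 24 were higher in clone 2 than in clone 1 and 5 were lower, where 45.0% and 47.3% of all genes of the files were higher and lower. Among the 7 members that passed the filter the median difference in log2(FPKM+1) was 0.55, and for all 39 with no filter it was 0.076. On that scale 0 of the 7 passed 2-fold in either direction (background 0.173% and 0.0788%). HOXB2, HOXB3 and HOXB6 were 3.04-fold, 3.04-fold and 3.38-fold higher in implied reads. They were called with a pseudocount of 0.1, at which the share of all genes was not computed. Of the 11 members with at least 10 reads in the pair, 4 were higher in clone 2 beyond counting error (CDX1, HOXB2, HOXB3 and HOXB6) and 0 were lower, where 10.1% of all genes with at least 10 reads were higher and 10.8% lower by this rule. The HOXB sum of clone 2 exceeded that of clone 1 by a log2 ratio of 1.20 (0.70 to 1.72) and the CDX sum by 0.67 (0.46 to 0.89). The order of the libraries in HOXB, which was clone 1, clone 2, control and R-spondin2 from lowest to highest, was also that of LGR4 itself. The summed levels of primitive streak genes and of stromal genes, given below, stood in this order as well, so it was not particular to HOXB. A relation to the level of LGR4 was not tested.

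Markers of cell state moved with the HOXB level. Over all genes of the files, 32.1% were lower and 37.9% higher in both clones by any amount. With R-spondin2, 44.6% were higher and 48.0% lower. Of 9 genes of the primitive streak and nascent mesoderm, 9 were lower in both clones and 9 were higher with R-spondin2, and their summed level was 1057 FPKM in the control, 1382 with R-spondin2, 380 in clone 1 and 587 in clone 2. Of 8 pluripotency genes, 8 were higher in both clones and 7 were lower with R-spondin2, with sums of 1389, 1145, 2210 and 2068 FPKM. Of 12 genes of stromal cells, 6 were lower and 3 higher in both clones and 11 were higher with R-spondin2, with sums of 513, 626, 390 and 480 FPKM. The list was divided in level. TAGLN, COL1A2, COL1A1 and THY1 were at 265.04, 114.67, 63.96 and 43.99 FPKM in the control, whereas POSTN, DCN and PRRX1 did not exceed 0.39, 0.27 and 0.56 FPKM in any library. LUM was the 1 stromal gene at least 2-fold lower in both clones, at 5.49, 9.11, 0.16 and 1.45 FPKM. In bulk RNA, fewer cells that express a gene and less RNA of it per cell cannot be told apart. The part of these markers in the HOX and CDX values was not tested.

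Markers of other cell types were also counted, against the 32.1% lower and 37.9% higher in both clones over all genes of the files. Of 7 endoderm genes 4 were lower and 2 higher in both clones, with sums of 61.1, 62.5, 38.0 and 41.7 FPKM, mainly from SOX17. Of 6 neural genes 0 were lower and 3 higher in both clones, with sums of 116, 106, 137 and 136 FPKM, nearly all from TUBB3, and SOX1 did not exceed 0.03 FPKM. Of 7 endothelial and blood genes 2 were lower and 2 higher in both clones, with sums of 8.84, 8.40, 5.47 and 6.0 FPKM. RUNX1, a regulator of the emergence of blood cells, differed most among them, at 3.96, 3.71, 0.61 and 1.29 FPKM, and the endothelial marker CDH5 did not exceed 0.05 FPKM.

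HOX proteins bind DNA together with cofactors of the PBX, MEIS and PKNOX families. Of 8 cofactor genes described, 7 had a mean of at least 1 FPKM, and 1 of these was at least 2-fold lower in both clones and 0 were higher, with a median difference of −0.11. This gene was MEIS2, at 2.58 FPKM in the control, 2.62 with R-spondin2, 0.59 in clone 1 and 0.70 in clone 2. MEIS1, a gene of blood progenitors, was at 1.08, 1.57, 0.28 and 0.46 FPKM, and PKNOX2 at 3.63, 3.78, 1.69 and 1.57 FPKM. PBX4, at 0.71, 0.72, 1.22 and 1.43 FPKM, and PBX3, at 13.68, 15.58, 15.48 and 14.08 FPKM, were higher in both clones. MEIS3 (39.65 to 48.65 FPKM), PBX2 (58.12 to 70.47) and PKNOX1 (7.11 to 8.05) made up the rest. By any amount 5 of the 8 were lower in both clones (MEIS1, MEIS2, MEIS3, PBX2 and PKNOX2) and 2 were higher. Among all genes of the files 32.1% were lower and 37.9% higher in both. At 2-fold, 1.08% of all genes tested were lower in both clones and 0.236% higher.

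Of 20 genes listed here as signals and factors upstream of HOX genes, 15 were lower in both clones and 15 were higher with R-spondin2. Whether each of them acts upstream of HOX genes in these cells was not tested. Among all genes of the files 32.1% were lower in both clones and 44.6% higher with R-spondin2. T, TBX6, MIXL1, EOMES, MESP1 and MSGN1 also belong to the primitive streak genes counted above, so the 2 lists are not separate. Of the 18 with a mean of at least 1 FPKM, 3 were at least 2-fold lower in both clones (MESP1, WNT5A and WNT8A) and 0 were higher, with median differences of −0.59 in the clones and 0.18 with R-spondin2. Of all genes tested, 1.08% were 2-fold lower and 0.236% 2-fold higher in both clones. MESP1, an early marker of cardiovascular and blood mesoderm, was at 38.45, 57.26, 5.64 and 13.39 FPKM. The ligand gene WNT5A was at 31.53, 42.52, 6.12 and 11.33 FPKM. WNT8A, a ligand of the streak, was at 11.15, 7.89, 3.45 and 4.03 FPKM, lowest in the clones and lower with R-spondin2, which was the order of CDX2 as well. The mesoderm factors MSGN1 (6.64, 7.23, 1.41 and 2.86 FPKM), TBX6 (26.68, 31.17, 10.22 and 14.84) and EOMES (117.47, 156.83, 54.61 and 77.11) had the next largest differences in the clones, all lower, and stood in the order of the HOXB sum.

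T, the Brachyury gene, was at 70.30, 77.78, 37.59 and 66.53 FPKM, so that clone 2 was near the control as it was for CDX1. Genes of retinoic acid were divided. CYP26A1, which encodes an enzyme that degrades retinoic acid, was at 135.55, 196.98, 69.76 and 91.70 FPKM. ALDH1A2, which encodes an enzyme that makes it, did not exceed 0.39 FPKM, and RARB, a receptor gene induced by it, did not exceed 0.25 FPKM.

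Of 20 chromatin regulators of HOX clusters, which include Polycomb and Trithorax proteins, 0 were at least 2-fold higher and 0 at least 2-fold lower in both clones or with R-spondin2, with median differences of 0.02 and −0.03. Of all genes tested, 0.236% were higher and 1.08% lower in both clones by this rule, and 0.0473% and 0.173% with R-spondin2. PHC1, a Polycomb subunit, was at 82.29, 63.02, 173.88 and 153.05 FPKM, and JARID2, a PRC2 partner, at 24.36, 18.75, 47.12 and 39.07 FPKM. KDM6B, a demethylase that removes the Polycomb mark, was at 11.13, 12.48, 4.31 and 5.85 FPKM. EZH2, the methyltransferase that writes it, was at 43.16, 39.62, 41.79 and 41.85 FPKM. The other ParaHox genes of the files, GSX1 and GSX2, did not exceed 0.14 and 0.19 FPKM.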

How the data were processed

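RNA-SEQ of human cells sorted at day 2 was deposited by the authors as FPKM per gene, scaled for transcript length and depth and given to 2 decimals, for 17894 genes in each of 4 libraries. The submitters' processing notes name BWA, Bowtie, RSEM and hg19, without versions or roles. TruSeq RNA libraries were made from total RNA, and strand use is not given in the sources used here.

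The members, lists and tests were chosen with earlier results of these data known. Of the members, those with a mean of at least 1 FPKM, or at 1 FPKM or more in any library, were named with every value, and the rest were given by range and count. Cofactors described were all named, at most 6 upstream factors and 4 chromatin regulators of largest change were named, and LUM, T, CYP26A1, EZH2, ALDH1A2, RARB, SOX17, TUBB3, SOX1, RUNX1, CDH5, POSTN, DCN, PRRX1, TAGLN, COL1A2, COL1A1, THY1, HOXC4, HOXA6, HOXA9, HOXA10, HOXB9 and HOXB13 were named after their values had been seen. RNA genes of the HOX clusters (20 listed) and PDX1 were not analysed here, and 1 HOX gene and 1 cofactor gene are not reported here, with the HOXA sum.

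Differences were taken in log2(FPKM+1) for 12697 genes whose mean reached 1 FPKM. A gene was called at a difference of at least 1 (2-fold), in both clones for LGR4-/-. No p-value was computed for these calls, since there was 1 control library. limma 3.58.1 in R 4.3.3, with 3 groups and 1 residual degree of freedom, was an alternative only. To estimate depth, library sizes were searched for the one that best turned FPKM under 0.6 into whole reads, over transcripts shorter than 1500 bases (GENCODE 29 lengths, 8068 genes with 1 transcript). At the estimates, from 76.3% to 77.7% of these values lay within 0.2 of a whole read, and of 60 member values between 0.3 and 10 reads 63.3% did. Ratios of single genes do not depend on the lengths, apart from rounding to whole reads, but the width of the intervals does. Ratios of summed reads do depend on them, since longer genes weigh more. For the CDX sum of clone 2 against the control, the log2 ratio was −0.65 in reads and −0.47 in FPKM. The authors may have used other lengths. HOXA3, HOXC4, HOXC6 and HOXD8 have several transcripts and were given their mean length. Intervals are 95% Clopper-Pearson for ratios of pairs with at least 10 reads and exact Poisson for sums. They cover counting error only. Fits and estimates were tested on simulated data. Computations used Python 3.11.15, numpy 2.4.6, scipy 1.17.1, pandas 2.3.3 and matplotlib 3.10.9. Promoters were taken from RefSeq on GRCh38.p14, and no coordinate was converted. Alternatives were other levels for on, a pseudocount of 0.1, other filters, 1.5-fold, rescaling by median ratio, each clone or leading gene left out, and limma.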

Additional observations from a re-analysis of the deposited data

How the results depend on the processing

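Of the alternative values of the main results, 78 stayed within 1.5 times the count or within the interval of the median or ratio, and 22 moved further. Of those for single genes and lists, 331 stayed within these limits or counting error and 22 did not. Within the limits 1 main median and 5 list medians changed sign. With no filter the R-spondin2 median was 0.05 (−0.16 with the filter) and the LGR4-/- median −0.02 (−0.93 with it). With on set at 5 FPKM, 4 members were on in the control, 4 with R-spondin2, 1 in clone 1 and 1 in clone 2, with 1 anterior and 1 central gene on in at least 1 library. At 0.5 FPKM, 11 were on in the control, 13 with R-spondin2, 6 in clone 1 and 11 in clone 2. With a pseudocount of 0.1 or a threshold of 1.5-fold, 1 member was lower with R-spondin2, 4 were lower in both clones and 3 were higher in clone 2 than in clone 1. The median of clone 2 minus clone 1 was 0.94 with a pseudocount of 0.1 and 0.076 over the 39 members with no filter. With a mean of at least 5 FPKM, 1 of 2 members was at least 2-fold lower in both clones. For these other levels for on, pseudocount, fold threshold and filter, the share of all genes was not computed. The counts of members at these settings therefore have no background beside them. Leaving out a clone gave from 3 to 5 members lower. limma called 0 of the 7 members, and 0 of all genes, at an adjusted p under 0.05 in either comparison, with 4 members and 2332 genes at an unadjusted p under 0.05 in LGR4-/- and 1 member and 481 genes in R-spondin2. Its adjusted p in LGR4-/- was 0.079 for HOXB2, 0.081 for CDX2 and 0.090 for HOXB6, and the lowest of any gene was 0.0755. As log2 ratios of summed FPKM, HOXB of clone 2 went from −1.67 to −1.31 without HOXB2. Without CDX1 the CDX ratios went from −0.30 to −0.67 with R-spondin2, from −1.23 to −1.45 in clone 1, from −0.47 to −0.96 in clone 2 and from 0.76 to 0.49 for clone 2 against clone 1. HOXD of clone 1 gave no value without HOXD8, since its other genes were at 0. Fewer genes pass a higher level or filter by construction, and the cause of the other shifts was not tested. No paired analysis was possible, since each condition or line had 1 library and the labels give no pairs. With 1 library per condition, and few reads for most HOX genes, the data give no measure of the spread between cultures.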
